A study of Mus musculus with 6 samples.

Results

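The 10 genes described here encode parts of the telomere and of the H/ACA ribonucleoproteins. They were taken by their symbols, Dkc1, Gar1, Nop10, Nhp2, Naf1, Tert, Terf1, Terf2, Pot1a and Tinf2, out of 55401 genes listed in each count table, and each symbol occurred once. Both groups were germinal centre B cells sorted by flow cytometry from spleens of wild-type (WT) C57BL/6 mice that had been immunised with sheep red blood cells (SRBC), a foreign antigen that needs T cell help, by the intraperitoneal route. The mice received a second injection on day 5 and were killed on day 12, and their age and sex were not given. The DP group and the DN group are 2 sorted subsets with 3 libraries each, all with the same batch label, and what DP and DN abbreviate is not stated. According to the design text 3 mice were used and both subsets came from each, yet the libraries carry no mouse identity. The p-values therefore reflect library-to-library spread alone, and that spread may be technical.

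H/ACA ribonucleoproteins are small RNA-guided enzymes of the nucleolus and Cajal body. Their catalytic protein, dyskerin (Dkc1), turns selected uridines of ribosomal and spliceosomal RNA into pseudouridine. It works together with Nop10, Nhp2 and Gar1, and the assembly factor Naf1 holds the place of Gar1 until the particle is mature. Telomerase RNA carries an H/ACA domain too, so the same proteins stabilise the RNA template that the reverse transcriptase Tert uses to extend chromosome ends. Shelterin caps those ends, with Terf1 and Terf2 on double-stranded repeats, the Pot1 proteins on the single strand and Tinf2 as the bridge between them. In human lymphoid tissue, germinal centre B cells are known for high telomerase activity.

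Polyadenylated RNA was sequenced, and 17509384 to 20538024 reads per DP library and 8904415 to 11897360 per DN library were counted to genes, a 1.88-fold greater mean depth in DP. A floor of 3 counts stood for 0.155 to 0.183 CPM (read counts scaled to a common library size, with TMM factors for composition) in DP libraries and for 0.236 to 0.315 CPM in DN libraries, which covers counting error only. All 10 B cell and germinal centre markers passed the filter on low counts, with a summed level of 1349 to 1382 CPM in DP and 2923 to 2999 CPM in DN, and 1 of them passed the test as higher and 9 as lower in DP. Of 9 T cell markers only Cd4 and Lck passed that filter, and Cd4 was called lower and Lck higher in DP. The sum of the 9 (58.0 to 61.0 CPM in DP and 50.4 to 58.6 CPM in DN) was mostly Lck, which B cells can express too. Cd3e averaged 0.0402 CPM in DP, under the floor, and 0.432 CPM in DN, from at most 7 counts in a library. Trac went the other way, with means under the floor in both groups (0.140 CPM in DP and 0.103 CPM in DN). Erythroid markers summed to 16.7 to 18.7 CPM in DP and 63.6 to 73.6 CPM in DN. Of the 9, 7 passed the filter and all 7 were called lower in DP, while Klf1 was near 0. Macrophage markers summed to 11.2 to 13.3 CPM in DP and 27.3 to 31.1 CPM in DN. Of the 10, 7 passed the filter and all 7 were called lower in DP. Among all tested genes 38.3% were called higher and 37.6% lower. Of 7 plasma cell markers 6 passed the filter. Tnfrsf17, which did not, had 0 counts in every library except DN replicate 3, which had 3. Of those 6 markers, 4 were called higher and 1 lower in DP, and the sum of the 7 was 312 to 326 CPM in DP and 396 to 405 CPM in DN. The lower one was Jchain, a large part of the sum, with a mean of 154.5 CPM in DP and 277.3 CPM in DN. Sdc1, Xbp1, Prdm1 and Derl3 were the higher ones. The part of these other cells in the results below was not tested.

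Sequence before the RefSeq start was at hand for 8 of the 10 genes (RefSeq, build GRCm38.p6), and Naf1 and Terf1 had no entry. The gene positions given further on are from GENCODE. The RefSeq start lies inside the GENCODE gene by 38 bases for Nhp2, 28 for Pot1a, 3 for Tinf2 and 2 for Terf2, and both starts are the same for the other 4. The windows of 250 bases were searched on both strands for 8 motifs. Matches are descriptions of letters, not of bound sites. The ETS core CCGGAAG was present before Gar1, Nhp2 and Tinf2, and in 7.05% of all 27025 windows, 1 per gene. All windows include those of genes that were not tested. The core holds a CG, and these windows had 25 (Gar1), 13 (Nhp2) and 20 (Tinf2) CG dinucleotides, against a median of 6 in all windows. Enrichment was not tested. Gar1 and Nhp2 were higher in DP and Tinf2 was lower. The Nhp2 match, though before the RefSeq start, lies within the GENCODE gene. The GC box GGGCGG was found before Nhp2, Tert and Pot1a (32.9% of all windows), the CCAAT box CCAAT before Nhp2 and Terf2 (34.5%), the cyclic AMP response element TGACGTCA before Tinf2 (1.62%) and TATAAA before Dkc1 (13%). No window of the 8 held the E-box CACGTG (6.05%), the NRF1 motif (3.86%) or the telomere repeat TTAGGG (9.25%). The 100 bases before the start are printed for the 3 genes that share the ETS core and for Tert with its GC boxes, 5′ to 3′ on the gene's strand, with motif matches in capitals. In Nhp2 a pair of CCAAT matches on opposite strands overlaps by 2 bases, and no other matches overlap.
Gar1, chr3:129831397-129831496, minus strand: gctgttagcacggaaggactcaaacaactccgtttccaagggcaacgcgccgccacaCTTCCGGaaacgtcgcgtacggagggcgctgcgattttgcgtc
Nhp2, chr11:51619673-51619772, plus strand: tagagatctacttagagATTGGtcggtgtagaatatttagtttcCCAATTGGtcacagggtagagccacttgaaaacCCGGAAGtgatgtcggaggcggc
Tinf2, chr14:55681818-55681917, minus strand: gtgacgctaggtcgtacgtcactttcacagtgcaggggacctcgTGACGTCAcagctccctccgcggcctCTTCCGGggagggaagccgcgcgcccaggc
Tert, chr13:73626811-73626910, plus strand: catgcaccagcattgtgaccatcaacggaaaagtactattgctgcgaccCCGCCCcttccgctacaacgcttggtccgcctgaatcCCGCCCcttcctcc

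The question of the series was how DP and DN cells differ, and among these genes the contrast ran by complex. All 5 H/ACA genes rose in DP, by 2.42-fold to 5.45-fold. Tert rose 1.91-fold from a very low level. Of the 4 shelterin genes, Terf1, Terf2 and Tinf2 were lower by 1.27-fold to 1.65-fold, and Pot1a did not pass the test. In all, 6 of the 10 genes were called higher (background 38.3% of 11296 genes tested) and 3 lower (background 37.6%) at an adjusted p under 0.05 in edgeR's quasi-likelihood test with Benjamini-Hochberg adjustment over all genes tested, which gave every adjusted p below. The 5 genes that rose at least 2-fold were the H/ACA genes, where 12.3% of all tested genes did so. Levels of the groups did not overlap for 9 of the 10, against a background of 77%. Since 75.9% of all genes passed the test, a call in itself says little about a gene, and sizes are given beside each. All 10 passed the filter on low counts. In bulk samples, fewer cells with a transcript and less RNA per cell cannot be told apart, and a change in total RNA per cell is not seen on this scale.

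**Figure D1:**
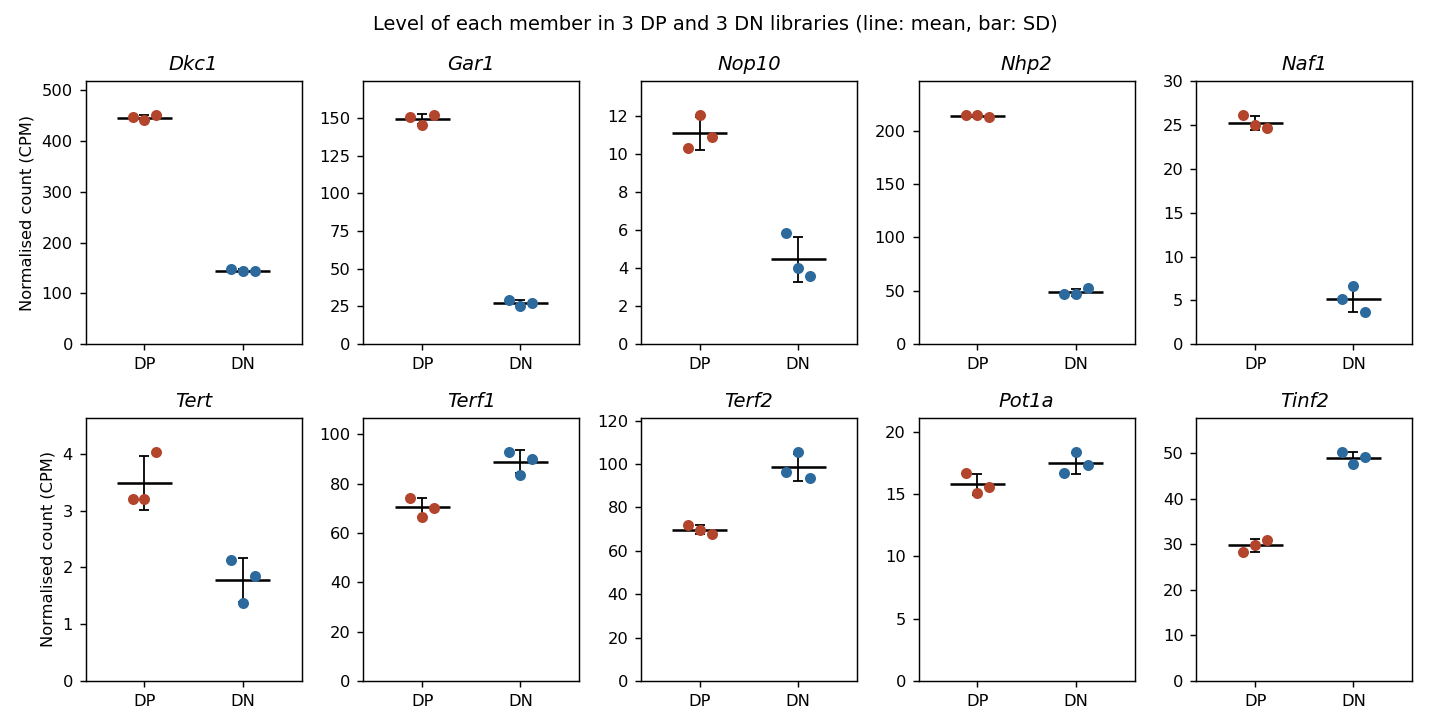
Normalised count (CPM, vertical axis from 0) of each of the 10 genes in the 3 DP libraries (red) and the 3 DN libraries (blue), with the mean as a line and the SD as a bar. The points of the 5 H/ACA genes and Tert lie higher in DP, those of Terf1, Terf2 and Tinf2 lower, and those of Pot1a overlap at 15.1 to 16.7 CPM in DP and 16.7 to 18.4 CPM in DN.

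Dkc1, which encodes the catalytic subunit dyskerin, lies on chromosome X from 75095854 to 75109777 (mm10, plus strand). It had 448, 440 and 450 CPM in DP, against 148, 143 and 144 CPM in DN. The libraries of a group lay within a few percent of each other and the groups were far apart. The log2 fold change was 1.62 ± 0.04 (SE, edgeR adjusted p = 7.22e-43), or 3.07-fold, and 4.97% of tested genes changed more in this direction. Only 1.09% of its exon sequence is shared with a neighbour on the other strand, Mpp1, which was itself lower in DP by 0.89 ± 0.08 on the log2 scale.

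Gar1, the subunit that marks the mature particle, lies on chromosome 3 from 129824912 to 129831396 on the minus strand. It had 151, 145 and 152 CPM in DP, against 29.1, 25.2 and 27.3 CPM in DN. Among the 10 genes its change was the largest, at 2.45 ± 0.06 (adjusted p = 5.95e-44) or 5.45-fold, and 1.73% of tested genes changed more in this direction.

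Nhp2, a core subunit that binds the scaffold RNA and Nop10, lies on chromosome 11 from 51619735 to 51623714. Its level was 214, 214 and 213 CPM in DP, against 46.7, 47.1 and 52.6 CPM in DN. The DP libraries were nearly equal to each other, with a coefficient of variation of 0.372%, while DN replicate 3 stood above the other DN libraries. The change was 2.14 ± 0.05 (adjusted p = 3.96e-44), or 4.39-fold.

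Nop10, the smallest core protein, which joins dyskerin to Nhp2, lies on chromosome 2 from 112261926 to 112263269 and had few reads. It was counted 174, 232 and 178 times in DP, against 74, 38 and 35 times in DN. In CPM these were 10.3, 12.0 and 10.9 in DP, against 5.82, 3.99 and 3.59 in DN. DN replicate 1 was the highest of its group and still lay below every DP library. The change of 1.28 ± 0.14 (adjusted p = 9.85e-12) or 2.42-fold was the smallest of the H/ACA genes, and its 95% interval of 0.99 to 1.56 overlapped that of Dkc1 (1.54 to 1.70) and lay below those of Gar1 (2.34 to 2.56), Nhp2 (2.04 to 2.23) and Naf1 (2.06 to 2.52).

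Naf1, the assembly factor that precedes Gar1 on the particle, lies on chromosome 8 from 66860217 to 66890564. It had 26.1, 25.0 and 24.6 CPM in DP, against 5.19, 6.61 and 3.69 CPM in DN, the last from 36 counts. The DN libraries were spread widely, with a coefficient of variation of 28.3% where counting alone gives 13.5%, and all 3 lay far below DP. Its change was 2.29 ± 0.12 (adjusted p = 7.46e-26), or 4.88-fold. Near-identical processed copies can take or lend reads, and the copy of Naf1, Gm2027, which aligned over 51.7% of the transcript at 92.6% identity, held 3 to 4 counts in DP and 1 to 2 in DN. The copies Gm13776 (of Dkc1), Gm13350 (Gar1), Gm47261 (Nhp2) and Gm46562 (Nop10) held 0 or 1 count in every library. Reads that align equally well to a gene and its copy may be counted to neither. Low counts of a copy therefore do not show that the gene lost no reads. Another copy of Dkc1, AC102437.1, aligned over 13% of the transcript at 92.06% identity. It was not found by that name among the counted genes, so its reads were not examined.

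Tert encodes the reverse transcriptase of telomerase and lies on chromosome 13 from 73626911 to 73649843. It was counted 54, 62 and 66 times in DP, against 27, 13 and 18 times in DN. In CPM its levels were 3.21, 3.21 and 4.03 in DP, against 2.12, 1.36 and 1.85 in DN. These are low values, with 82.6% of tested genes at a higher level, but every library was above its floor and the groups did not overlap. The change was 0.94 ± 0.23 (adjusted p = 2.98e-04), or 1.91-fold, with a 95% interval of 0.48 to 1.39 on the log2 scale. With DP libraries thinned to the mean DN depth it was 0.83 (adjusted p = 0.00497). The RNA template Terc is listed under 2 identifiers, and both had 0 counts in every library. The floor of 3 counts is the limit this allows, and these libraries were made from polyadenylated RNA.

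Terf1 encodes a shelterin protein on the double-stranded repeats and lies on chromosome 1 from 15805646 to 15844052. It had 74.3, 66.6 and 70.3 CPM in DP, against 92.8, 83.7 and 90.01 CPM in DN. Every DP library was lower than every DN library, by a gap of similar size to the range within a group. The fall was small, at -0.34 ± 0.05 (adjusted p = 2.41e-08), or 1.27-fold.

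Terf2, which encodes the other double-strand binding protein of shelterin and protects ends from fusion, lies on chromosome 8 from 107069400 to 107096547. Its level was 72.0, 69.4 and 67.9 CPM in DP, against 96.4, 106 and 93.7 CPM in DN. The groups were well separated, with DN replicate 2 the highest. It fell by 0.50 ± 0.05 on the log2 scale (adjusted p = 1.14e-13), or 1.41-fold.

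Tinf2, the bridge of shelterin, lies on chromosome 14 from 55674689 to 55681820. It had 28.4, 29.9 and 31.0 CPM in DP, against 50.3, 47.7 and 49.2 CPM in DN. The values within each group were close and the groups far apart. Its change of -0.72 ± 0.06 (adjusted p = 1.52e-15), or 1.65-fold, was the largest fall among the 10 genes, and 80.8% of tested genes had a larger log2 fold change. Of its exon sequence 31.2% is shared with Gmpr2 on the other strand, and as the sources used here do not say whether counting used strand, reads there cannot be assigned with certainty. Gmpr2 was counted 332, 354 and 342 times in DP and 296, 248 and 220 times in DN, and was lower in DP by 0.29 ± 0.08 (adjusted p = 0.00195).

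Pot1a, 1 of the 2 mouse genes for the single-strand binding protein, lies on chromosome 6 from 25743737 to 25809246. It had 16.7, 15.1 and 15.6 CPM in DP, against 16.7, 18.4 and 17.3 CPM in DN. The highest DP library lay above the lowest DN library, so the groups overlapped. The difference of -0.14 ± 0.09 did not pass (adjusted p = 0.157), with a 95% interval of -0.33 to 0.04. With library totals alone as the scaling, which moved the median of all genes to -0.19, Pot1a was called lower (-0.34, adjusted p = 9.85e-04).

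**Figure D2:**
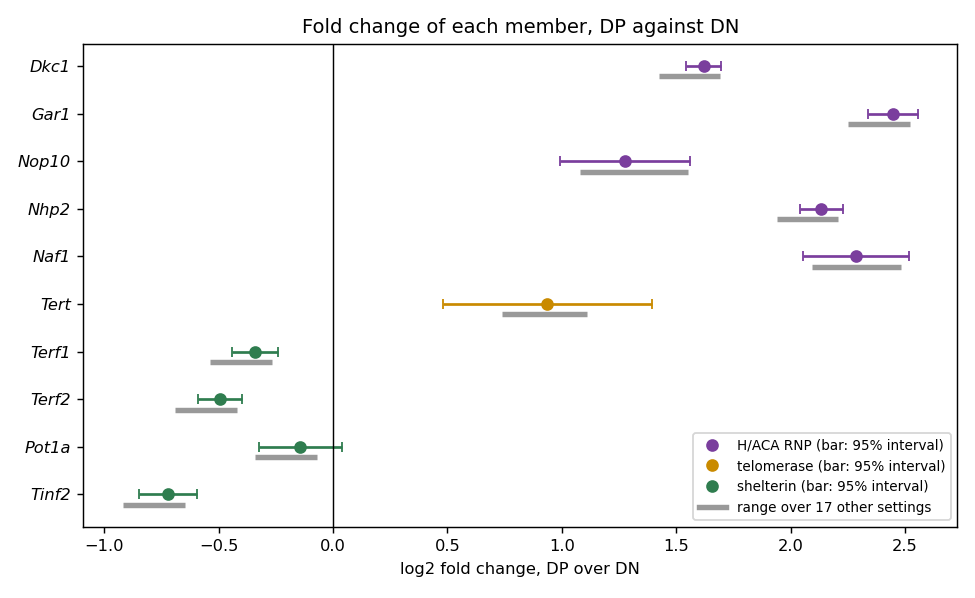
Log2 fold change of DP over DN (horizontal axis) for each of the 10 genes, with its 95% interval, and as a grey bar the range over 17 other settings of the analysis. The H/ACA genes lie between 1.28 and 2.45, Tert at 0.94 and the shelterin genes between -0.72 and -0.14, and no grey bar crosses 0.

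Levels can be compared between genes only per length, and here CPM were divided by the kilobases of each gene's merged exons. In DP, Nhp2 (187 CPM per kb), Dkc1 (108) and Gar1 (87.0) led. Terf1 (15.3 ± 0.834, SD, n = 3) and Terf2 (15.2 ± 0.452) followed and did not differ beyond their spread. Nop10 (9.98), Naf1 (8.16), Tinf2 (6.03), Pot1a (1.82) and Tert (0.608) came next, and libraries of all other neighbours in that order did not overlap. DN cells had another order. Nhp2 (42.6 CPM per kb) and Dkc1 (35.2) led again, but Terf2 (21.4) and Terf1 (19.3) came before Gar1 (15.9), and Tinf2 (9.93), Nop10 (4.03), Pot1a (2.01), Naf1 (1.67) and Tert (0.310) followed. Pot1a and Naf1 were the only neighbours that overlapped there. The choice of length moved some ranks. With the longest transcript as the length, Terf2 (26.2 CPM per kb) came before Terf1 (24.2) and Tinf2 (8.83) before Naf1 (8.44) in DP. In DN it put Dkc1 (51.7) before Nhp2 (46.8) and Pot1a (5.34) before Nop10 (4.03). Per kb of merged exons, transcripts of the 4 proteins of the mature particle (Dkc1, Nhp2, Gar1 and Nop10) spanned 9.98 to 187 CPM per kb in DP and 4.03 to 42.6 in DN, with Nop10 the lowest in both.

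**Figure D3:**
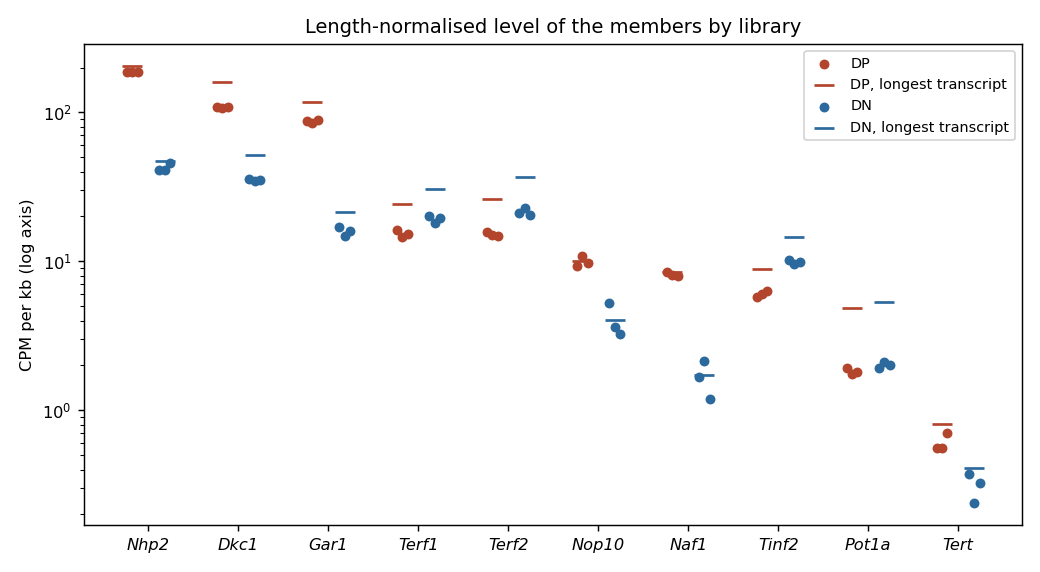
Length-normalised level (CPM per kb of merged exons, log axis) of the 10 genes in each DP library (red points) and DN library (blue points), and the group mean per kb of the longest transcript as a dash. Gar1 lies above Terf1 and Terf2 in DP (87.0 against 15.3 and 15.2) and below them in DN (15.9 against 19.3 and 21.4).

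Ratios inside a library do not depend on the scaling between libraries. Their levels depend on the gene lengths used, here of merged exons, while the difference between DP and DN does not. Levels per kb were set against each other in 7 ratios, and DP and DN were compared by two-sided exact permutation. With 3 libraries a group the smallest possible p is 0.1, and p-values were also adjusted over the 7 ratios (Benjamini-Hochberg). Naf1 stood to Gar1, the protein that replaces it, at a log2 ratio of -3.42 ± 0.05 in DP and -3.29 ± 0.48 in DN (SD, n = 3), and the groups overlapped (exact p = 0.7, adjusted 0.7). A difference was not detectable against this DN spread, and without DN replicate 2 the DP minus DN difference of -0.13 became 0.12. Dkc1 to Nhp2 was -0.79 ± 0.02 in DP and -0.27 ± 0.10 in DN, with no overlap (exact p = 0.1, adjusted 0.233). With longest transcripts the same ratio was -0.37 in DP and 0.15 in DN. Gar1 to Nop10 was 3.13 ± 0.14 in DP and 2.01 ± 0.30 in DN, also without overlap (exact p = 0.1, adjusted 0.233), which is 8.73 in DP and 4.02 in DN on a linear scale. Dkc1 to Nop10 overlapped between groups (3.44 ± 0.13 in DP, 3.16 ± 0.34 in DN, exact p = 0.2, adjusted 0.28).

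Within shelterin, Pot1a to Terf2 was -3.06 ± 0.05 in DP and -3.41 ± 0.05 in DN, with no overlap (exact p = 0.1, adjusted 0.233). Terf1 to Terf2 (0.01 ± 0.06 in DP, -0.15 ± 0.16 in DN, exact p = 0.3, adjusted 0.35) and Tinf2 to Terf2 (-1.33 ± 0.11 in DP, -1.11 ± 0.12 in DN, exact p = 0.2, adjusted 0.28) overlapped. Between the complexes, the mean log2 level per kb of the 5 H/ACA genes minus that of the 4 shelterin genes was 2.55, 2.64 and 2.58 in DP, against 0.29, 0.20 and 0.08 in DN. With longest transcripts as lengths it was 1.93, 2.02 and 1.97 in DP, against -0.32, -0.42 and -0.54 in DN, so that which complex was higher in DN turned with the length used. The DP minus DN difference was 2.40 with either length. On a linear scale the geometric mean of H/ACA over shelterin transcripts was 6.02 in DP and 1.14 in DN with merged exons, and 3.93 in DP and 0.744 in DN with longest transcripts.

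**Figure D4:**
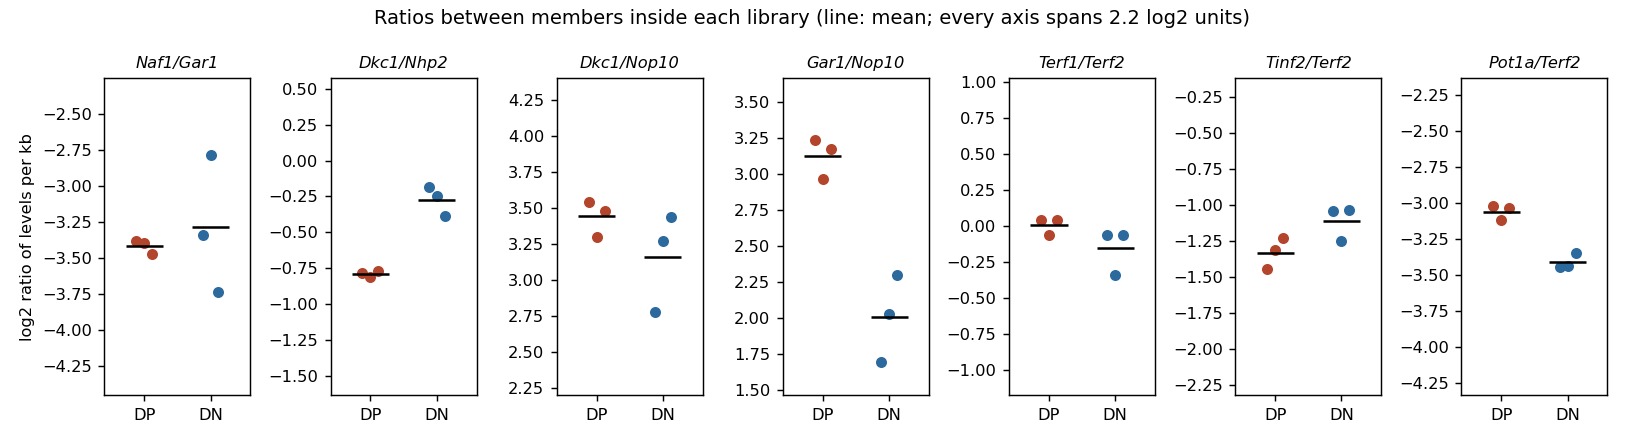
Log2 ratio of levels per kb between pairs of the 10 genes inside each DP library (red) and DN library (blue), with group means as lines; every vertical axis spans the same number of log2 units. Dkc1/Nhp2, Gar1/Nop10 and Pot1a/Terf2 do not overlap between groups, and Naf1/Gar1 has the widest DN spread (-3.74 to -2.78).

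The other genes of these pathways were counted in the same fit. There the median gene changed by 0.0061, and 38.3% of all tested genes were called higher and 37.6% lower. Of the 3 remaining shelterin genes, Terf2ip, which encodes the Terf2 partner Rap1, fell to 42.8 ± 0.680 CPM in DP, against 74.7 ± 4.27 CPM in DN (-0.80 ± 0.06, adjusted p = 3.74e-20). Acd, whose product recruits telomerase, had 7.90 ± 0.458 CPM in DP and 8.54 ± 1.74 CPM in DN and did not pass (-0.13 ± 0.13, adjusted p = 0.39) except as lower with library totals alone, and 33.3% of its exon sequence is shared with Carmil2 on the other strand. Pot1b, the second Pot1 gene, was at the threshold (-0.36 ± 0.17, adjusted p = 0.0493), at 4.30 CPM in DP and 5.56 CPM in DN on average, and its groups overlapped. Without DN replicate 3 its adjusted p was 0.261, and it was also lost without DN replicate 2 (0.0951) or DP replicate 1 (0.113), 2 (0.131) or 3 (0.0525). Of all 7 shelterin genes, 5 were lower in DP, Pot1b among them, beside 37.6% of all tested genes. None was higher, none fell 2-fold, and the median was -0.36.

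Genes for the assembly of H/ACA and other small nucleolar particles were mostly higher in DP. Of the 12 genes listed for this, 9 rose and 1 fell, and the median was 1.21. The 1 that fell, Nop53, is a factor of large ribosomal subunit assembly rather than of these particles. The particle chaperone Nolc1 rose to 1408 CPM in DP, against 229 CPM in DN (2.62 ± 0.04). The ATPases of the assembly machinery rose as well, Ruvbl1 2.82-fold and Ruvbl2 2.51-fold, as did Znhit6 (2.00 ± 0.05). Of the exon sequence of Ruvbl2 10.7% is shared with Gys1 on the other strand, and of that of Znhit3 13% with Myo19. Shq1, which holds dyskerin before it is built in, had 19.9 ± 0.972 CPM in DP and 5.11 ± 0.677 CPM in DN (1.94 ± 0.12, adjusted p = 2.35e-22). Pih1d1 and Rpap3, which with the ATPases form the R2TP complex, did not pass (-0.02 ± 0.09 for Pih1d1 and 0.03 ± 0.04 for Rpap3), although both were called lower with library totals alone.

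All 4 proteins of the box C/D particles, the sister class that guides ribose methylation, rose. Fbl, the methyltransferase, had 273 ± 8.51 CPM in DP and 55.9 ± 1.66 CPM in DN (2.28 ± 0.05). Nop56 rose by 1.81 ± 0.04, Nop58 by 1.71 ± 0.04 and Snu13 by 1.13 ± 0.06. Their median of 1.76 stands beside 2.14 for the 5 H/ACA genes. Of 12 stand-alone pseudouridine synthases, which modify RNA without a guide, 9 rose and 3 did not pass, with a median of 1.42. Pus7 rose to 105 CPM in DP, against 13.0 CPM in DN (3.00 ± 0.07), Pus1 by 2.05 ± 0.07, Pus7l by 2.01 ± 0.10 and Trub1 by 1.87 ± 0.09. Of the exon sequence of Pus1 23.8% is shared with Gm26515 on the other strand. The share was larger in Pus3 (88.1%), Rpusd3 (65.2%) and Pusl1 (29.9%), and it was 14.6% in Trub2. All of these were among the genes that rose.

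In a list for telomerase RNA maturation and trafficking, 9 of 13 tested genes rose and 4 did not pass, with a median of 0.54. The list was drawn widely and also holds genes with other roles. Of these Gnl3, Gnl3l and Pinx1 were among those that rose, and Pif1 and Smg6 did not pass. Its counts therefore do not describe telomerase RNA maturation alone. Gnl3, the nucleolar protein nucleostemin, rose to 405 CPM in DP, against 53.5 CPM in DN (2.92 ± 0.05). The exosome nuclease Dis3 rose by 1.47 ± 0.04, the cap methyltransferase Tgs1 by 0.91 ± 0.05 and the nucleolar ATPase Nvl by 0.86 ± 0.04. Wrap53, which brings telomerase to Cajal bodies, had 7.97 ± 0.833 CPM in DP and 7.14 ± 0.572 CPM in DN and did not pass (0.16 ± 0.13, adjusted p = 0.289).

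Rises numbered 7 and falls 6 among 14 genes of telomere replication, none by 2-fold, and the median was 0.20. Both shares are near those of all tested genes, of which 38.3% were called higher and 37.6% lower. Of the 4 subunits of the polymerase alpha and primase complex, Pola1 (-0.55 ± 0.04) and Prim1 (-0.37 ± 0.05) fell, while Pola2 (0.27 ± 0.05) and Prim2 (0.38 ± 0.06) rose, Pola2 not with library totals alone. The helicase Wrn fell (-0.55 ± 0.07), while Timeless, a fork protection factor, rose by 0.57 ± 0.04. Fen1 was also called higher (0.30 ± 0.04), and 78.8% of its exon sequence is shared with Gm10143 on the other strand. For Dclre1b, which did not pass, 14.7% is shared with Gm15471. Among 14 tested telomere-associated regulators 4 rose, 6 fell, again none by 2-fold and again near the shares of all tested genes, and their median was -0.0083. The nuclease scaffold Slx4 (-0.65 ± 0.04) and the nuclear receptor Nr2c2 (-0.68 ± 0.06) fell, and 30.7% of the Nr2c2 exon sequence is shared with Mrps25 on the other strand. Of the complex that works on DNA ends, Mre11a (0.42 ± 0.04) and Nbn (0.47 ± 0.06) rose, and Rad50 did not pass (0.04 ± 0.04, adjusted p = 0.307) except as lower with library totals alone (-0.16).

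**Figure D5:**
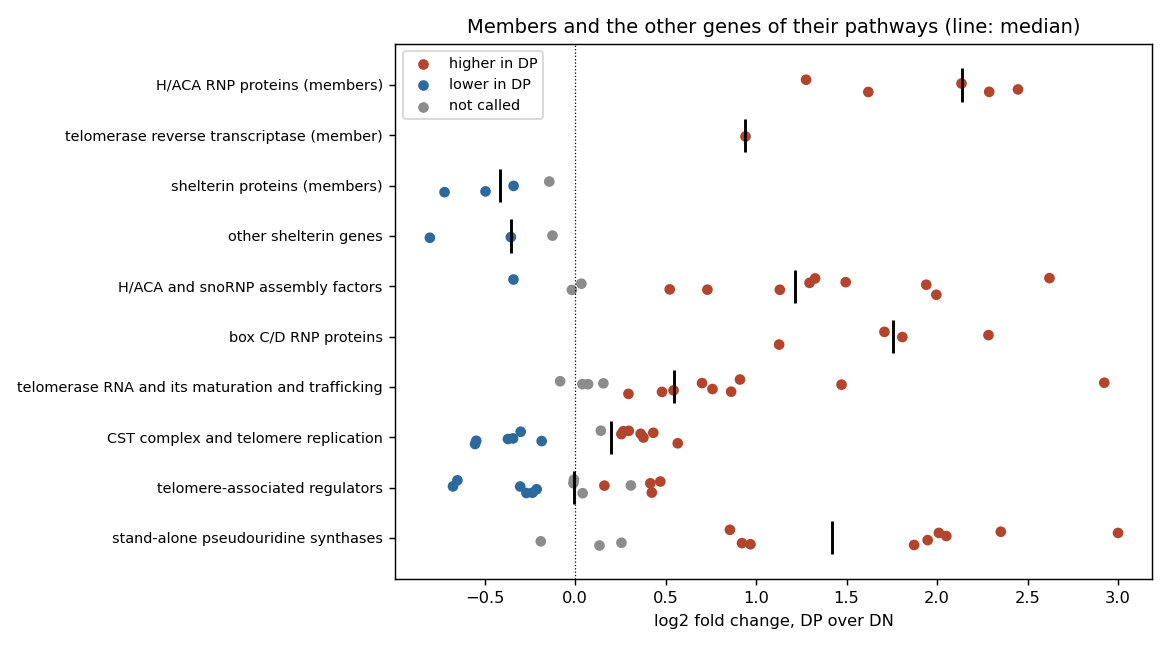
Log2 fold change of DP over DN (horizontal axis) for every tested gene of the members' groups and of 7 related lists, coloured by call, with the median of each list as a line. H/ACA, box C/D, assembly and pseudouridine synthase medians lie between 1.21 and 2.14, and shelterin medians at -0.42 and -0.36.

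By the root mean square difference in centred log2 CPM over the 6 libraries, the protein-coding genes most like Dkc1 were Exosc2 (0.0231), Nob1 (0.0233) and Hsp90ab1 (0.0339). Those most like Terf2 were Pou2f1 (0.0200), Ino80d (0.0254) and Phf11b (0.0336). With 2 groups of 3 libraries this likeness mostly reflects an equal fold change.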

How the data were processed

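The submitters' processing notes name HTSeq 0.13.5, STAR 2.7.10a, Trim Galore 0.6.6 and, as the genome build, mm10. Not given in the sources used here are the annotation release, whether counting used strand, and any use of molecular identifiers. The deposited values are raw read counts per gene, and 5 summary rows per table that name no gene (9.56% of counts in DP, 12.6% in DN) were left out. Gene positions and exon lengths came from mouse GENCODE release 21, to which 54349 identifiers matched with their version.

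Groups followed the titles. DP was compared with DN over all 11296 genes that passed filterByExpr (minimum count 10) by the robust quasi-likelihood test in edgeR 4.0.16 (R 4.3.3) on TMM-scaled libraries without a block. Calls were made at a Benjamini-Hochberg adjusted p under 0.05. Standard errors come from the fold change and its F statistic. The procedure was tested on simulated counts with known changes in a small part of the genes. That does not test the scaling or the calls where most genes change, and here 75.9% were called. Pairs of libraries in a group differed beyond counting noise (chi-square of 1.96 to 3.26 per degree of freedom, against 144 to 182 across groups). Members and gene lists were chosen with earlier results of these data known. All 10 members are named, and of each list the 4 genes with the smallest p, plus Terc, Wrap53, Terf2ip, Acd and Pot1b. Shq1, Pih1d1, Rpap3, Nop53, Znhit3, Pola2, Prim2, Fen1, Dclre1b, Rad50, Pus3, Rpusd3, Pusl1, Trub2, overlapping genes and copies were named after their values were seen. So were Gnl3l, Pinx1, Pif1 and Smg6. Alternatives were other scalings, filters, tools (DESeq2 1.42.0, limma 3.58.1), a replicate block, thinning, a threshold of 0.01, leaving out the 10 most abundant genes and leaving out each library.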

Additional observations from a re-analysis of the deposited data

How the results depend on the processing

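All 9 called genes among the 10 kept their direction and their call in all 17 other settings, which include leaving out each library in turn. The stricter filter asked for at least 50 counts in 3 libraries. Tert met it in DP alone (54, 62 and 66 counts), and Nop10 and Naf1 met it only with DP libraries included. For these genes that setting is therefore no separate support. Pot1a was called in 1 setting, library totals alone (-0.34, adjusted p = 9.85e-04), a scaling that moved the median gene to -0.19. That scaling split all calls into 3288 higher and 5359 lower, against 4328 and 4243. In the 7 related lists together it gave 37 higher and 24 lower, against 42 and 15. There 2 genes of the maturation list and 1 pseudouridine synthase were called lower, and 2 telomere-associated regulators were called higher in place of 4. With upper-quartile factors, with the stricter filter and without DN replicate 3, 1 gene of each of the maturation and synthase lists was called lower. With thinned DP libraries 1 gene of the maturation list was. Among the 10 genes' fold changes and the ratios, only Naf1 to Gar1 changed sign, in the runs that left out a library (-0.36 to 0.12, from -0.13); the positive value was without DN replicate 2, and no test was lost since it had not passed. Same-numbered libraries did not deviate together (correlations of 0.0562, -0.00611 and -0.0182). The replicate block changed no call among the 10 genes (Tert at adjusted p = 2.42e-04, Pot1a at 0.167). With that block Pot1b lost its call (adjusted p = 0.0512), as it did at the threshold of 0.01. Pot1b also lost it with DESeq2 (0.114), limma (0.0581), no filter on low counts (0.196), thinned DP libraries (0.324) and the 10 most abundant genes left out (0.0512). Tert changed by 0.83 after thinning. Depth limits Tert, Nop10 and Naf1 most, with 58, 147 and 165 counts over the DN libraries.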
